A study of Homo sapiens with 9 samples.

Results

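Ribosome biogenesis factors are the proteins that build ribosomes in the nucleolus without staying in the finished particle. A list of 53 of them, given by gene symbol, was read from the 26830 genes of each deposited table, and all 53 were found. By role they were 18 factors of the small subunit, 20 of the large subunit, 8 proteins of small nucleolar ribonucleoproteins (snoRNPs) and 7 nucleolar regulators. The cells were labelled NB4, a human line that was established from acute promyelocytic leukaemia, and their cell type is given as acute monocytic leukemia. The levels of promyelocyte granule genes, CD14, CSF1R and globin genes given below go against both descriptions. Cells exposed for 48 h to FB23 or to FB23-2 were compared with cells given DMSO alone, the solvent, and polyadenylated RNA was sequenced from 3 libraries per group. The title of the series speaks of blocking FTO, an RNA demethylase that both compounds were made to inhibit, and no genotype differs between the groups. The labels hold no dose, and the compounds are therefore matched by time and not by dose. The labels do not say whether replicates were separate cultures, so p-values measure the spread between these libraries, which may be technical.

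A ribosome starts as a long precursor RNA, transcribed from ribosomal DNA by RNA polymerase I. Guide RNAs in snoRNPs direct its chemical modification: box C/D particles add methyl groups to ribose, and box H/ACA particles turn uridine into pseudouridine. A large assembly called the small subunit processome folds and cuts the part that becomes the small subunit, and a separate series of particles matures the large subunit and passes it to the cytoplasm. The transcription factor MYC is known to raise transcription of many of these genes, which are highly expressed in dividing leukaemia cells.

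Library totals ran from 12360291 to 38410750 expected counts, and each of the 53 genes had between 75 and 82492 counts in a library, so all 53 passed the filter on low counts. CPM below is the usual count scaled for library size, here with the trimmed mean of M values (TMM), and a gene is called when edgeR's quasi-likelihood test gives an adjusted p under 0.05 over all 13365 genes tested. The libraries did not show the granule genes of promyelocytes: MPO and CTSG had 0 counts, ELANE had 1 count over the 9 libraries, PRTN3 and AZU1 reached at most 0.76 and 1.77 TPM (the deposited transcript level scaled for length and depth), while CD33 averaged 44.02, 38.8 and 44.4 TPM in DMSO, FB23 and FB23-2. The 7 promyelocyte markers, 2 of them at 0 counts, summed to 44.76 to 45.6 TPM in DMSO, 38.62 to 39.94 TPM after FB23 and 44.28 to 47.43 TPM after FB23-2. The monocyte markers CD14 and CSF1R reached at most 0.84 and 0.33 TPM, and ITGAM, LYZ and CD68 at most 4.66, 11.96 and 36.74 TPM. The 5 monocyte markers summed to 13.95 to 14.84, 10.23 to 12.04 and 44.78 to 52.39 TPM in the same order. Of these 5, 3 lay above DMSO and 1 below with FB23-2, and 0 above and 2 below with FB23. CD68 averaged 5.06 TPM in DMSO and 33.5 TPM after FB23-2, and LYZ 4.35 and 11.4 TPM. The 4 lymphoid markers, with MS4A1 at 0, summed to 4.59 to 6.78, 4.11 to 4.97 and 30.43 to 34.41 TPM. By contrast 7 erythroid markers, among them the globin genes HBG1, HBG2, HBA1 and HBZ, summed to 25490 to 26971 TPM in DMSO, to 28782 to 30792 TPM after FB23 and to 3516 to 3951 TPM after FB23-2. All 7 lay below DMSO with FB23-2, whereas the summed level of 7 epithelial and fibroblast markers was 676 to 684 TPM in DMSO, 727 to 751 TPM after FB23 and 2895 to 3087 TPM after FB23-2, where KRT8 led it. Of these 7, 4 lay above DMSO and 1 below with FB23-2, and 2 above and 2 below with FB23. The 1 below was EPCAM, at 73.5 TPM in DMSO and 25.5 TPM after FB23-2. Low promyelocyte granule genes, CD14 and CSF1R beside high globin levels do not match the labelled line, so its identity is in question. These marker levels moved with the FB23-2 group in the same libraries as the results below, and their part in those results was not tested. In bulk RNA, fewer cells of a type and less RNA per cell cannot be told apart.

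All 53 ribosome biogenesis genes fell with FB23-2, and most fell slightly with FB23. With FB23-2 against DMSO, 53 of 53 were called lower, where 41.3% of all tested genes were called lower and 41.3% higher (5518 and 5523 genes, but 4244 and 6755 with limma on log2(TPM + 1)). Each of the 53 fell by at least 1 on the log2 scale, a size reached by 16.1% of tested genes, although NPM1 and NOP10 fell short of it (-0.69 and -0.67) after removal of GC content and length trends. IMP3 also fell short of it (-0.78) in at least 1 other way of processing. Log2 fold changes of the 53 ran from -3.69 (NOP16) to -1.02 (IMP3). Their median was -2.33, which is 19.9% of the DMSO level, while the median of all tested genes was 0.01. Adjusted p-values (edgeR) lay between 5.89e-18 and 6.25e-10, and the FB23-2 libraries lay below all DMSO libraries for all 53 genes. With FB23 against DMSO, 43 were called lower, 0 higher and 10 were not called, where 11.2% of all tested genes were called lower and 12.3% higher. The median was -0.24, or 84.6% of DMSO, against 0.00 for all tested genes (0.004 before rounding), and the fold changes ran from -0.43 (MYBBP1A) to -0.04 (GNL2). All 3 FB23 libraries lay below all 3 DMSO libraries for 46 of the 53 genes and overlapped them for 7. Such separation of libraries was not counted over all tested genes for either compound, so these counts have no background share beside them. The number called with FB23 depended on the processing: limma on log2(TPM + 1), which changes both test and scale, called 27 of the 53 lower, beside 6.09% of all tested genes. Its median for the 53 was -0.22. Both comparisons use the same DMSO libraries, so they are not independent.

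**Figure D1:**
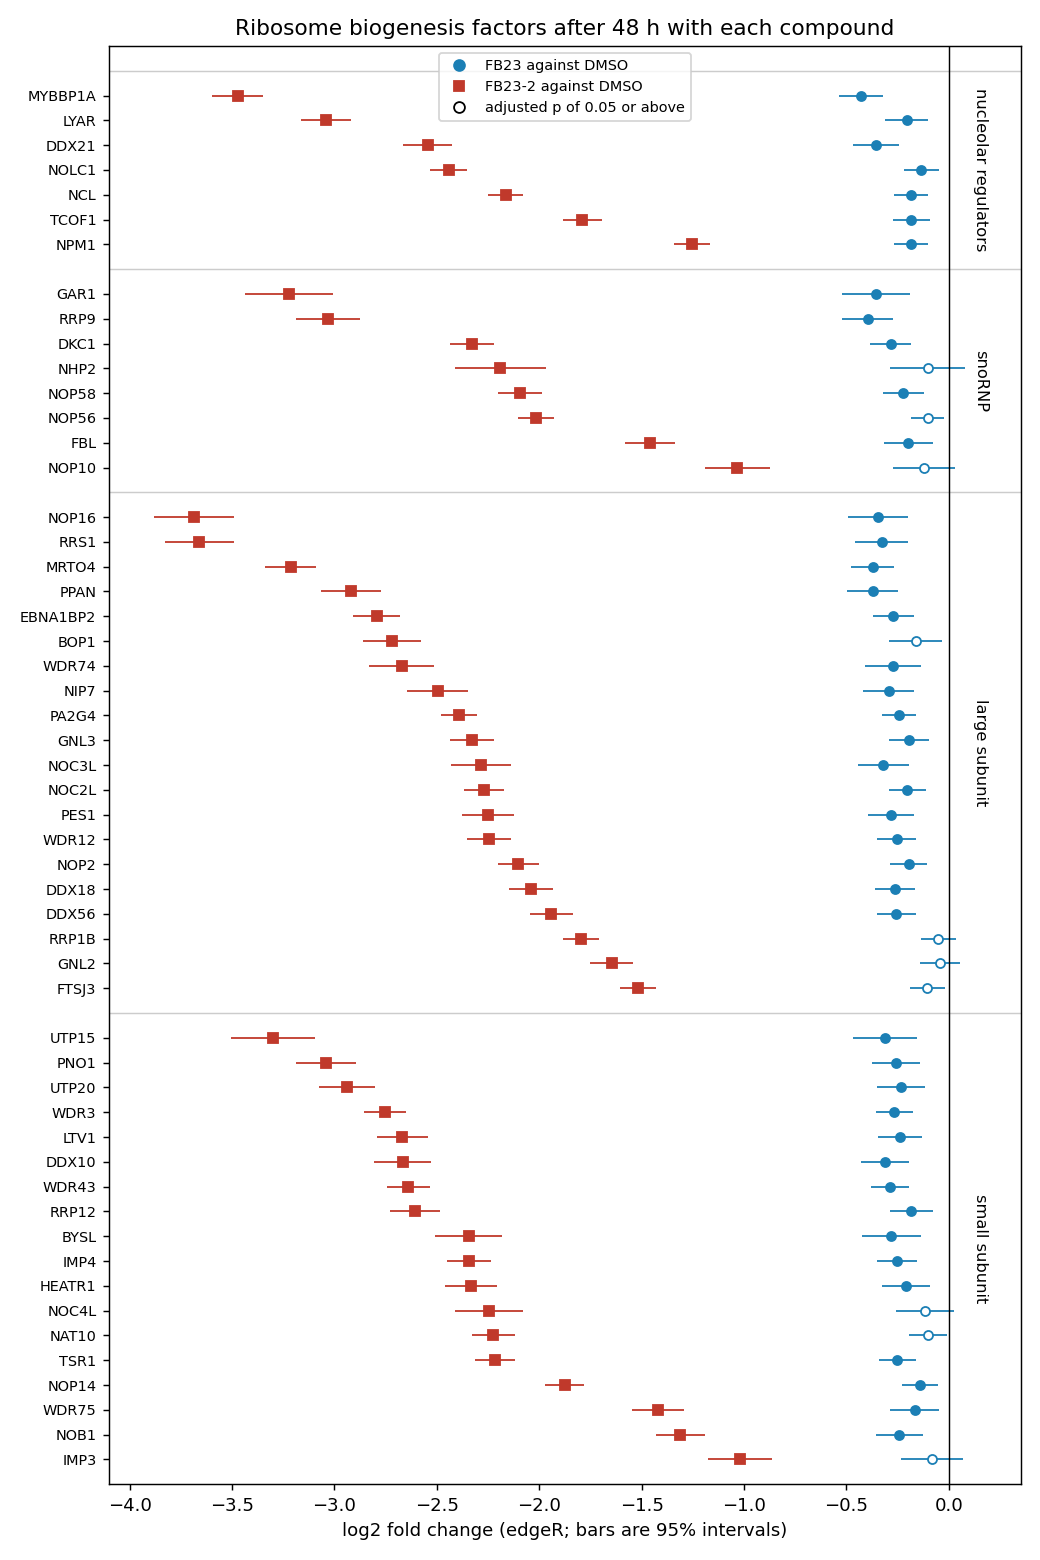
Log2 fold change of each of the 53 genes against DMSO (horizontal axis, edgeR, bars are 95% intervals) for FB23 (blue circles) and FB23-2 (red squares), grouped by role, with open symbols where the adjusted p was 0.05 or above. All FB23-2 values lie between -3.69 and -1.02 and all FB23 values between -0.43 and -0.04.

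Promoter sequence did not enter the choice of these genes and was read for 1 motif. The E-box CACGTG is the sequence that MYC and other factors of its class are known to bind. RefSeq promoter windows (GRCh38.p14, 250 bases before and 50 after each annotated start) were matched by symbol for 45 of the 53 genes and searched for CACGTG, which reads the same on both strands. A gene counts when any of its annotated starts holds a match. The motif was present for 22 of the 45 genes (48.9%), against 12.6% of 9823 tested genes and 8.78% of all 27305 genes with such a window. It was found for 8 of 17 small-subunit, 7 of 16 large-subunit, 4 of 7 snoRNP and 3 of 5 nucleolar regulator genes. Most matches sat around the start: 21 genes (46.7%) had one within 50 bases of it, against 5.22% of tested genes, and 16 genes (35.6%) had one in the 50 bases after it, against 1.53%. Wholly before the start the motif was found for 7 genes (15.6%), against 11.2% of tested genes. Genes with and without a match overlapped in their change: with FB23-2 the median log2 fold change was -2.44 over 22 genes with the motif (-3.47 to -1.03) and -2.25 over 23 without it (-3.69 to -1.02). With FB23 the medians were -0.26 and -0.24. A match describes these letters only and is not a measured binding site.

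The 30-base windows below show the motif in capitals, 5′ to 3′ on the strand of the gene, for the 8 genes with the largest fall with FB23-2 among those with a match within 50 bases of the start and 12 further bases of promoter window on each side, and for NOP10, the least lowered of them.
MYBBP1A: ggggccggagcaCACGTGtttcgtgtttcg
GAR1: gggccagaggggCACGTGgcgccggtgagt
MRTO4: cgtcttccgccgCACGTGgattcagcgcga
PNO1: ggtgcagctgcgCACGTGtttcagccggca
RRP9: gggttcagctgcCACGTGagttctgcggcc
UTP20: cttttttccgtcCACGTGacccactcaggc
LTV1: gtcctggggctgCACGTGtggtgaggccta
WDR43: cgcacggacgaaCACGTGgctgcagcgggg
NOP10: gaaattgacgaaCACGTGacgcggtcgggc
In GRCh38.p14 these lie at chr17:4555340-4555369 (minus strand, MYBBP1A), chr4:109815781-109815810 (plus, GAR1), chr1:19251807-19251836 (plus, MRTO4), chr2:68157885-68157914 (plus, PNO1), chr3:51941892-51941921 (minus, RRP9), chr12:101280083-101280112 (plus, UTP20), chr6:143843354-143843383 (plus, LTV1), chr2:28894658-28894687 (plus, WDR43) and chr15:34343130-34343159 (minus, NOP10). Counting the annotated start as base 1, the first base of the motif was at 28, 32, 15, 10, -5, -10, 29, 4 and -11 in the same order. The same core of 6 letters stood near the start of MYBBP1A, which fell by 3.47 on the log2 scale, and of NOP10, which fell by 1.03.

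**Figure D2:**
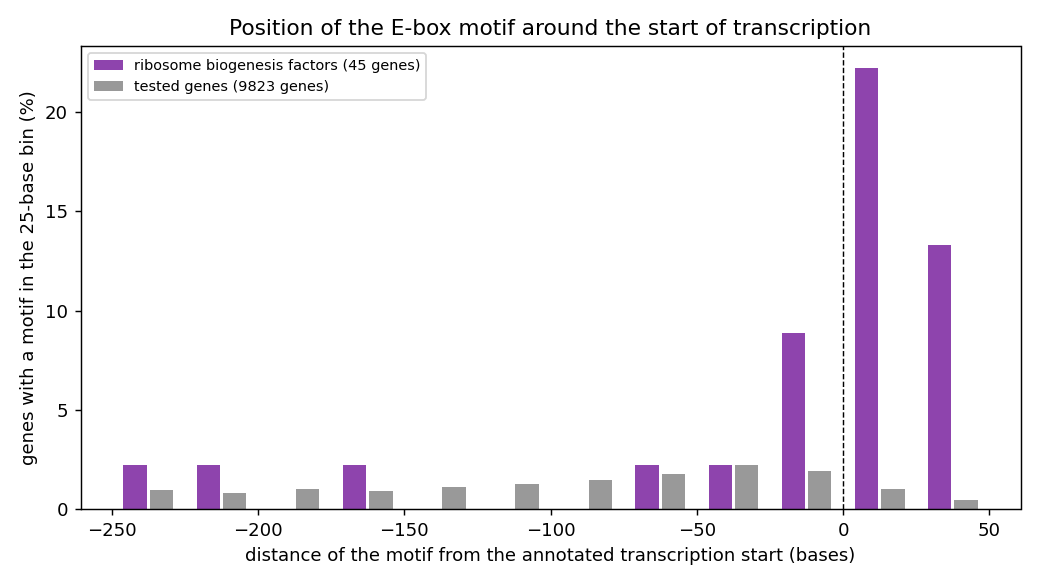
Share of genes (vertical axis, percent) with a CACGTG match starting in each 25-base bin, by distance from the annotated transcription start in bases (horizontal axis), for the 45 ribosome biogenesis genes with a promoter window (purple) and the 9823 tested genes with one (grey). The tallest purple bars lie in the first 50 bases after the start, where 16 of the 45 genes have a match.

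The 18 small-subunit factors all fell with FB23-2, with a median log2 fold change of -2.34. With FB23, 15 were called lower and 3 (NAT10, an RNA cytidine acetyltransferase, IMP3 and NOC4L) were not called, with a median of -0.24. Among all tested genes 11.2% were called lower with FB23. On log2(TPM + 1) limma did not call NOP14, WDR75, HEATR1, UTP20, UTP15, PNO1, LTV1 and DDX10 with FB23. Their limma adjusted p-values were 0.161, 0.309, 0.162, 0.117, 0.106, 0.085, 0.0756 and 0.0584. At that setting 6.09% of all tested genes were called lower. UTP15, a subunit of the early complex that joins the nascent precursor RNA (chromosome 5, 73565443 to 73583377, GRCh38), stood at 55.8, 62.3 and 56.5 CPM in DMSO replicates 1 to 3, at 49.2, 46.9 and 45.3 CPM with FB23 and at 4.94, 6.06 and 7.11 CPM with FB23-2. The 3 groups of UTP15 libraries did not overlap, and its log2 fold changes were -0.31 ± 0.07 (SE) with FB23 and -3.30 ± 0.10 with FB23-2, a fall to 10.2% of DMSO. PNO1, which escorts the late small subunit precursor (chromosome 2, 68157844 to 68176238), stood at 93.3, 95.95 and 88.8 CPM in DMSO, 83.7, 76.0 and 74.1 CPM with FB23 and 11.2, 10.7 and 11.97 CPM with FB23-2, and fell by 3.04 ± 0.07 with FB23-2. UTP20, a large scaffold protein of the processome (chromosome 12, 101280109 to 101386616), stood at 241, 245 and 236 CPM in DMSO, 221, 209.9 and 186 CPM with FB23 and 29.7, 32.3 and 32.45 CPM with FB23-2. It fell by 0.23 ± 0.06 and 2.94 ± 0.06 on the log2 scale, again with no overlap between groups. DDX10, an RNA helicase, fell by 0.31 ± 0.06 with FB23, from 121, 129 and 122 CPM to 107, 100.9 and 94.0 CPM, and by 2.67 ± 0.07 with FB23-2, to 18.3, 19.2 and 21.4 CPM.

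HEATR1, another early processome subunit (chromosome 1, 236549005 to 236604504), stood at 387, 405.5 and 389.9 CPM in DMSO, 370.4, 345 and 309.6 CPM with FB23 and 75.2, 78.4 and 81.5 CPM with FB23-2. Its FB23 libraries were spread more widely than those of the other groups but stayed below DMSO. Its log2 fold changes were -0.21 ± 0.06 with FB23 and -2.33 ± 0.06 with FB23-2. The FB23 value did not pass once DMSO replicate 2 was left out (-0.19, edgeR adjusted p = 0.0594), and leaving out FB23 replicate 3 it was -0.14 and passed. On log2(TPM + 1) it did not pass (-0.19, limma adjusted p = 0.162). At the other end were IMP3 and NOB1. IMP3, which helps pair the U3 guide RNA with the precursor (chromosome 15, 75639085 to 75648706), stood at 213, 196 and 210.5 CPM in DMSO, 175, 189 and 219 CPM with FB23 and 104, 109 and 92.05 CPM with FB23-2. The FB23 libraries of IMP3 spanned the DMSO range and gave -0.08 ± 0.07, which did not pass (edgeR adjusted p = 0.444, 95% interval -0.23 to 0.07), whereas FB23-2 lowered it by 1.02 ± 0.07 to 49.4% of DMSO. Without FB23 replicate 3 the value with FB23 was -0.17 and passed (edgeR adjusted p = 0.0432), and without FB23 replicate 1 it was -0.018 (adjusted p = 0.884). NOB1, the nuclease that makes the final cut of the small subunit RNA (chromosome 16, 69741867 to 69754940), stood at 195, 190.2 and 184 CPM in DMSO, 159.5, 155 and 167 CPM with FB23 and 79.3, 80.7 and 69.15 CPM with FB23-2. It fell by 0.24 ± 0.05 and 1.31 ± 0.06.

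**Figure D3:**
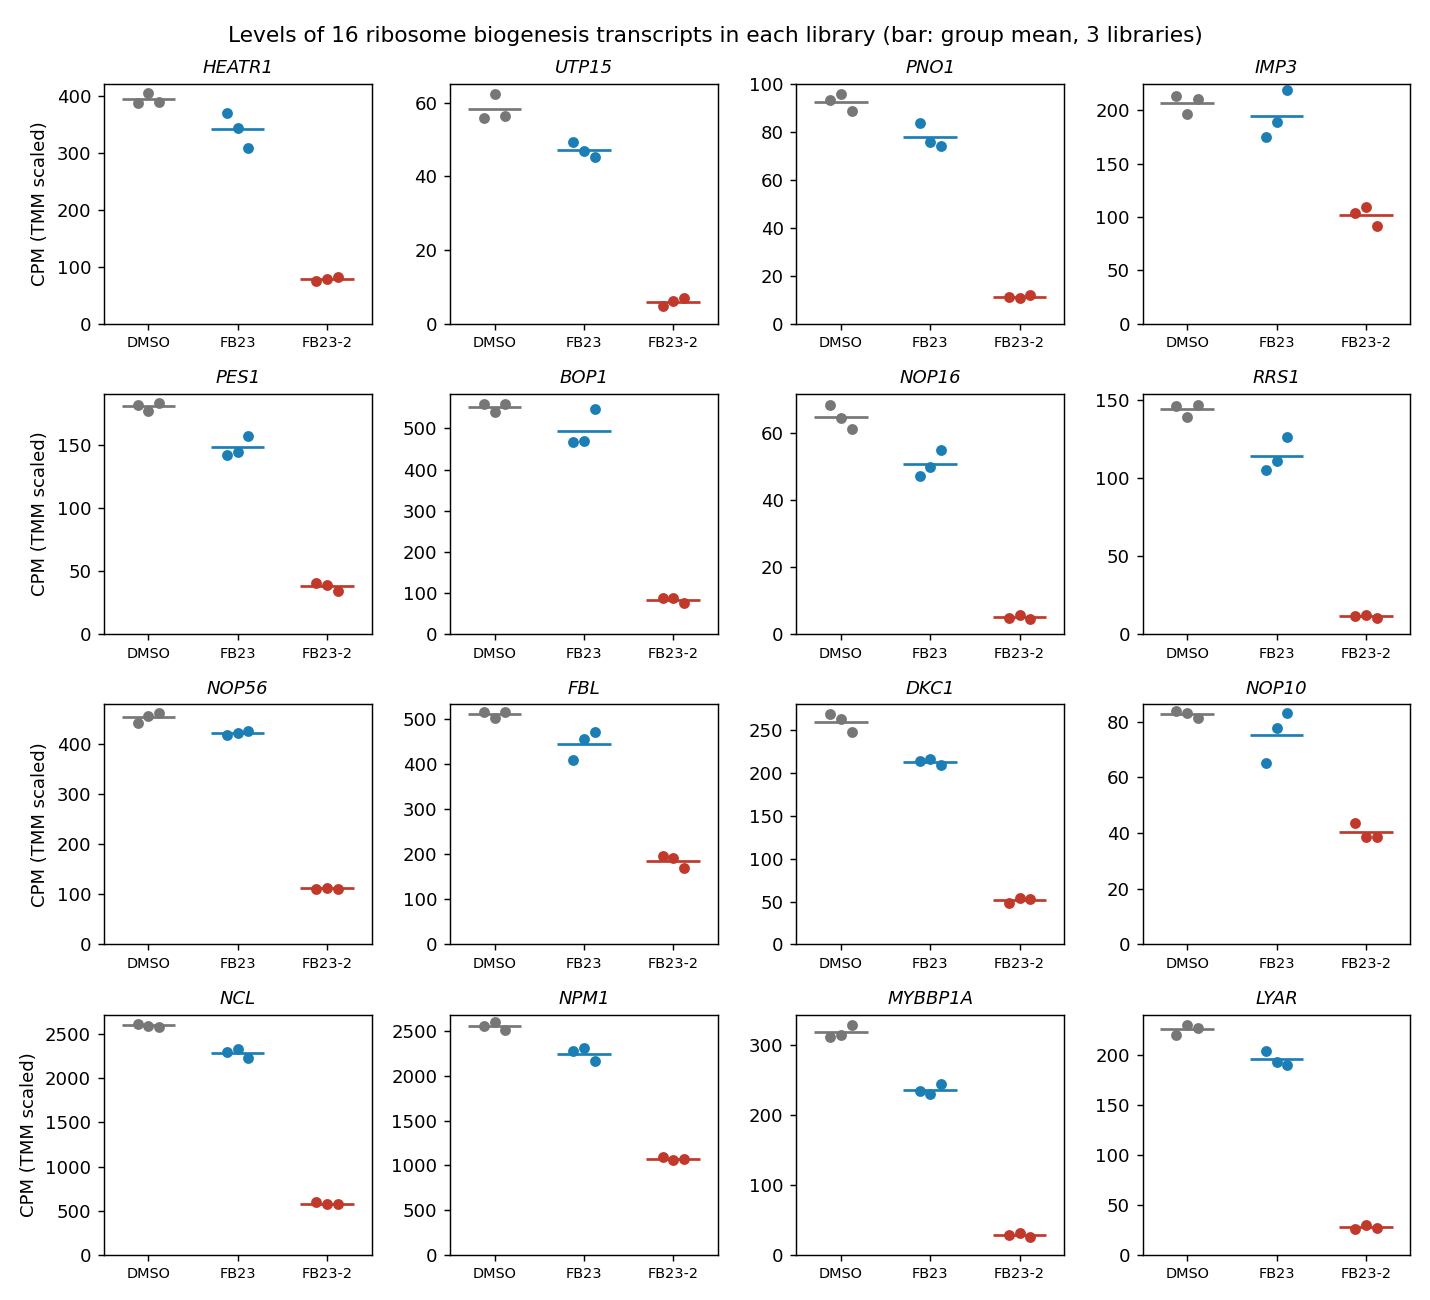
CPM (vertical axes, linear from 0) of 16 ribosome biogenesis genes in each of the 9 libraries, with DMSO in grey, FB23 in blue and FB23-2 in red and a bar at each group mean. The FB23-2 points lie below all DMSO and FB23 points in every panel, and the FB23 points of IMP3, BOP1 and NOP10 overlap those of DMSO.

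The 20 large-subunit factors all fell with FB23-2 (median log2 fold change -2.31). With FB23 16 of them were called lower, against 11.2% of all tested genes, with a median of -0.26. The 4 that were not called with FB23 were RRP1B, BOP1, GNL2 and FTSJ3. On log2(TPM + 1) GNL3 and DDX18 lost their FB23 call (limma adjusted p = 0.146 and 0.0504). NOP16, a nucleolar protein of early large subunit particles (chromosome 5, 176383938 to 176388975), had the largest fall of all 53 genes with FB23-2: 68.5, 64.6 and 61.3 CPM in DMSO, 47.1, 49.8 and 55.0 CPM with FB23 and 4.79, 5.75 and 4.56 CPM with FB23-2. That is a log2 fold change of -0.35 ± 0.07 with FB23 and -3.69 ± 0.09 with FB23-2, or 7.77% of DMSO. RRS1, which helps place the 5S RNA (chromosome 8, 66429028 to 66430733), stood at 146, 139 and 147 CPM in DMSO, 105, 111 and 126 CPM with FB23 and 11.5, 12.3 and 10.15 CPM with FB23-2, and fell by 0.33 ± 0.06 and 3.66 ± 0.08. MRTO4, a placeholder for a protein of the ribosomal stalk (chromosome 1, 19251539 to 19260128), stood at 263, 263 and 252.5 CPM in DMSO, 201, 193 and 207 CPM with FB23 and 29.2, 29.3 and 24.97 CPM with FB23-2. Its falls were 0.37 ± 0.05 and 3.21 ± 0.06, and none of the 3 groups overlapped another. PPAN, which acts in large subunit RNA processing (chromosome 19, 10106289 to 10111634), fell by 0.37 ± 0.06 with FB23, from 174, 164.5 and 186 CPM to 129, 128 and 147 CPM, and by 2.92 ± 0.07 with FB23-2, to 22.2, 23.5 and 23.8 CPM.

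PES1, BOP1 and WDR12 form the PeBoW complex, which is needed to process the large subunit precursor. PES1 (chromosome 22, 30576625 to 30607083) stood at 181, 177 and 183 CPM in DMSO, 142, 144 and 157 CPM with FB23 and 40.3, 38.5 and 34.4 CPM with FB23-2, and fell by 0.28 ± 0.05 and 2.25 ± 0.06. BOP1 (chromosome 8, 144262102 to 144291370) stood at 559, 540.5 and 559.6 CPM in DMSO, 466.5, 469 and 546 CPM with FB23 and 87.4, 88.0 and 76.1 CPM with FB23-2. FB23 replicate 3 reached the DMSO range of BOP1 and the other two did not, giving -0.16 ± 0.06 (edgeR adjusted p = 0.0637), and -0.24 without that library (adjusted p = 0.00218). With FB23-2 BOP1 fell by 2.72 ± 0.07 and WDR12 by 2.25 ± 0.05. The smallest falls of the group with FB23-2 were those of FTSJ3, a methyltransferase of precursor RNA, and GNL2, a GTPase of large subunit export. FTSJ3 (chromosome 17, 63819433 to 63830012) stood at 200.4, 198 and 199.8 CPM in DMSO, 183, 189.7 and 183 CPM with FB23 and 68.5, 70.6 and 69.9 CPM with FB23-2. GNL2 (chromosome 1, 37566816 to 37595935) stood at 164.5, 158 and 157 CPM in DMSO, 161, 154.5 and 150.7 CPM with FB23 and 50.65, 48.8 and 53.8 CPM with FB23-2. They fell by 1.52 ± 0.04 and 1.65 ± 0.05 with FB23-2. With FB23 their values of -0.11 ± 0.04 (edgeR adjusted p = 0.0681) and -0.04 ± 0.05 (adjusted p = 0.546) did not pass. For FTSJ3 the FB23 libraries nevertheless lay below all DMSO libraries. Its FB23 value passed in 3 of 21 other ways of processing (edgeR adjusted p = 0.0215 with GC content and length trends removed).

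The 8 snoRNP proteins all fell with FB23-2 (median log2 fold change -2.14). With FB23 5 of them were called lower, against 11.2% of all tested genes, with a median of -0.21. NOP56, NHP2 and NOP10 were not called with FB23. On log2(TPM + 1) NOP58 and GAR1 lost their FB23 call (limma adjusted p = 0.0863 and 0.11). In the box C/D core, FBL, the enzyme that methylates ribosomal RNA (chromosome 19, 39834458 to 39846414), stood at 514, 503 and 515 CPM in DMSO, 408, 455 and 471 CPM with FB23 and 195, 191.5 and 169.6 CPM with FB23-2, and fell by 0.20 ± 0.06 and 1.46 ± 0.06. With 1 library left out the FB23 value of FBL did not pass in 3 cases: -0.19 leaving out DMSO replicate 1 (edgeR adjusted p = 0.0676), -0.19 leaving out DMSO replicate 3 (adjusted p = 0.0627) and -0.14 leaving out FB23 replicate 1 (adjusted p = 0.0622). Its scaffold partner NOP56 (chromosome 20, 2652145 to 2658393) stood at 442, 456 and 461 CPM in DMSO, 417.5, 422 and 425 CPM with FB23 and 111, 113 and 111 CPM with FB23-2. The FB23 libraries of NOP56 all lay below DMSO but the value of -0.10 ± 0.04 did not pass (adjusted p = 0.0621). It passed in 3 of 21 other ways of processing, among them the DESeq2 Wald test (adjusted p = 0.0296). With FB23-2 NOP56 fell by 2.02 ± 0.04. NOP58, the other scaffold protein, had a log2 fold change of -2.09 ± 0.05 with FB23-2. RRP9, which belongs to the U3 particle (chromosome 3, 51933430 to 51941941), stood at 94.7, 91.1 and 89.5 CPM in DMSO, 63.2, 69.8 and 74.6 CPM with FB23 and 10.8, 10.98 and 12.1 CPM with FB23-2. It had the largest fall of the group with FB23, by 0.40 ± 0.06, and fell by 3.03 ± 0.07 with FB23-2.

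The 4 proteins of the box H/ACA core ran from -3.22 to -1.03 on the log2 scale with FB23-2, and the 3 of box C/D from -2.09 to -1.46. GAR1 (chromosome 4, 109815510 to 109824740) stood at 49.6, 53.8 and 49.8 CPM in DMSO, 39.6, 42.3 and 38.1 CPM with FB23 and 6.29, 4.19 and 5.77 CPM with FB23-2, and fell by 0.35 ± 0.08 and 3.22 ± 0.10. DKC1, dyskerin, the pseudouridine synthase of the particle and a part of telomerase (chromosome X, 154762742 to 154777689), stood at 269, 262 and 247 CPM in DMSO, 213, 216.5 and 209.6 CPM with FB23 and 48.5, 53.7 and 53.2 CPM with FB23-2. Its groups did not overlap, with falls of 0.28 ± 0.05 and 2.33 ± 0.05. NOP10 (chromosome 15, 34341713 to 34343177) stood at 83.9, 83.1 and 81.4 CPM in DMSO, 65.1, 77.7 and 82.9 CPM with FB23 and 43.7, 38.6 and 38.5 CPM with FB23-2. FB23 replicate 3 of NOP10 lay within the DMSO range, giving -0.12 ± 0.07 (edgeR adjusted p = 0.237), or -0.19 without that library (adjusted p = 0.0490) and -0.044 without FB23 replicate 1 (adjusted p = 0.648). With GC content and length trends removed it was -0.21 (adjusted p = 0.00117). With FB23-2 it fell by 1.03 ± 0.08, to 48.8% of DMSO (-0.67 on the log2 scale with GC content and length trends removed), and NHP2 by 2.19 ± 0.11, so that 3 of the 4 core proteins were at or below 21.9% of DMSO and NOP10 was not.

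All 7 nucleolar regulators were called lower with FB23 (median -0.19), against 11.2% of all tested genes, and all 7 fell with FB23-2 (median -2.44). With limma on log2(TPM + 1) the FB23 values of NCL, NPM1, NOLC1 and LYAR did not pass (adjusted p = 0.0549, 0.0852, 0.169 and 0.13). MYBBP1A, a nucleolar protein that regulates ribosomal DNA transcription (chromosome 17, 4538897 to 4555631), had the largest fall of all 53 genes with FB23. It stood at 313, 314 and 329 CPM in DMSO, 235, 230.4 and 245 CPM with FB23 and 28.4, 31.4 and 26.1 CPM with FB23-2, and fell by 0.43 ± 0.05 and 3.47 ± 0.06. DDX21, a helicase that couples RNA polymerase I to precursor processing (chromosome 10, 68956128 to 68985073), stood at 908, 909.9 and 886 CPM in DMSO, 759.7, 708 and 648 CPM with FB23 and 150.2, 152 and 162 CPM with FB23-2. It fell by 0.36 ± 0.05 and 2.54 ± 0.06, with no overlap between the groups. LYAR, a nucleolar zinc finger protein (chromosome 4, 4267701 to 4290169), stood at 220.3, 230.2 and 227 CPM in DMSO, 204.5, 193 and 190.6 CPM with FB23 and 25.5, 29.98 and 27.0 CPM with FB23-2, and fell by 0.21 ± 0.05 and 3.04 ± 0.06.

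NCL, nucleolin (chromosome 2, 231453531 to 231483641), stood at 2618, 2597 and 2581 CPM in DMSO, 2295, 2332 and 2225 CPM with FB23 and 594, 571 and 575 CPM with FB23-2. NPM1, nucleophosmin, a chaperone of nucleolar assembly (chromosome 5, 171387116 to 171411137), stood at 2558, 2605 and 2507 CPM in DMSO, 2274, 2308 and 2166 CPM with FB23 and 1090, 1059 and 1069 CPM with FB23-2. In DMSO and FB23 these abundant genes had nearly the same CPM, and with FB23 they fell alike, by 0.19 ± 0.04 and 0.18 ± 0.04. With FB23-2 NCL fell by 2.16 ± 0.04 and NPM1 by 1.25 ± 0.04, to 22.3% and 41.9% of DMSO. NPM1 was the regulator that fell least, and its log2 fold change was -0.69 after removal of GC content and length trends. TCOF1, treacle, which loads RNA polymerase I factors (chromosome 5, 150357629 to 150400308), stood at 224.5, 217 and 225 CPM in DMSO, 197, 191.5 and 198 CPM with FB23 and 63.55, 66.8 and 62.2 CPM with FB23-2, and fell by 0.18 ± 0.04 and 1.79 ± 0.05. NOLC1, a chaperone of snoRNPs, fell by 2.44 ± 0.04 with FB23-2. Its FB23 value of -0.13 ± 0.04 passed (edgeR adjusted p = 0.0223) but was lost in 9 of 21 other ways of processing, as were those of WDR75 in 10 and NOP14 in 7, with adjusted p-values of up to 0.169, 0.309 and 0.161.

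The FB23 libraries did not order the genes alike. FB23 replicate 3 was the lowest of the group for 26 of the 53 genes and the highest for 24, replicate 1 was the lowest for 19 and the highest for 20, and replicate 2 lay between them for most. HEATR1, UTP20 and DDX21 had their highest FB23 value in replicate 1, whereas IMP3, BOP1, NOP10 and RRS1 had theirs in replicate 3.

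Set against FB23 directly, FB23-2 lowered all 53 genes (41.1% of tested genes were called lower and 40.4% higher in this comparison, or 5495 and 5395 genes, but 4112 and 6615 with limma on log2(TPM + 1)). The fall was at least 1 on the log2 scale for 51 of them, a size reached by 14.1% of tested genes, and the other two were IMP3 at -0.94 ± 0.07 (95% interval -1.09 to -0.78) and NOP10 at -0.91 ± 0.07 (-1.07 to -0.75). After removal of GC content and length trends NOP10 stood at -0.46 and NPM1 at -0.53 in place of -1.07 (-0.525 and -1.069 before rounding), so NPM1 then fell short of that size. WDR75 (-0.95) and NOB1 (-0.84) also fell short of it in at least 1 other way of processing. The median of the 53 was -2.12 and the largest differences were those of NOP16 (-3.34 ± 0.09), RRS1 (-3.33 ± 0.08) and MYBBP1A (-3.04 ± 0.06). Adjusted p-values (edgeR) lay between 2.06e-17 (NOLC1) and 3.25e-09 (NOP10), and no FB23-2 library overlapped the FB23 range in any of the 53 genes. This separation was also not counted over all tested genes. Group means followed the order DMSO, FB23, FB23-2 for every gene. Doses of the compounds are not given, so this difference is between the groups as treated.

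Per unit of length, in TPM as deposited, levels of the 53 genes in DMSO ran from 16.5 ± 1.15 TPM (SD, n = 3) for UTP15 to 3153 ± 68.9 TPM for NPM1. NCL at 1468 ± 11.3 TPM, FBL at 856 ± 12.8 TPM and NOP10 at 683 ± 6.42 TPM followed NPM1, and these neighbours differed beyond their spread. Over the 53 genes the log2 fold change was compared with level and length. With the log2 DMSO level Spearman's rho was 0.19 and Pearson's r 0.35 for FB23-2, and 0.14 and 0.19 for FB23. With transcript length rho was 0.005 for FB23-2 and 0.033 for FB23, as a description over genes measured in the same libraries. Summed over all 53 genes, the level went from 13160 ± 114 TPM in DMSO to 11570 ± 332 TPM after FB23 and 4427 ± 70.9 TPM after FB23-2, or 87.9% and 33.7% (33.65 before rounding) of DMSO. The large-subunit factors had the lowest remaining share with FB23-2, 21.8% (3342 ± 14.7 to 728 ± 12.4 TPM), followed by the small-subunit factors at 33.1% (1636 ± 4.01 to 542 ± 7.18 TPM), the nucleolar regulators at 38.4% and the snoRNP proteins at 39.1%. Abundant genes with smaller falls weigh most in the last sums, NPM1 in that of the nucleolar regulators and FBL and NOP10 in that of the snoRNP proteins. The median changes of the groups lay closer together, between -2.44 and -2.14. The 77 cytosolic ribosomal protein genes measured in the same way summed to 302400 ± 1964 TPM in DMSO. They summed to 293300 ± 3603 TPM after FB23 (97.0%) and to 326600 ± 6118 TPM after FB23-2 (108%). The TPM scale was itself shifted with FB23-2: on log2(TPM + 1) the median change of all tested genes against DMSO was 0.20. With TMM scaling the median change of the 77 genes was -0.16, so the 108% is not read as a rise.

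**Figure D4:**
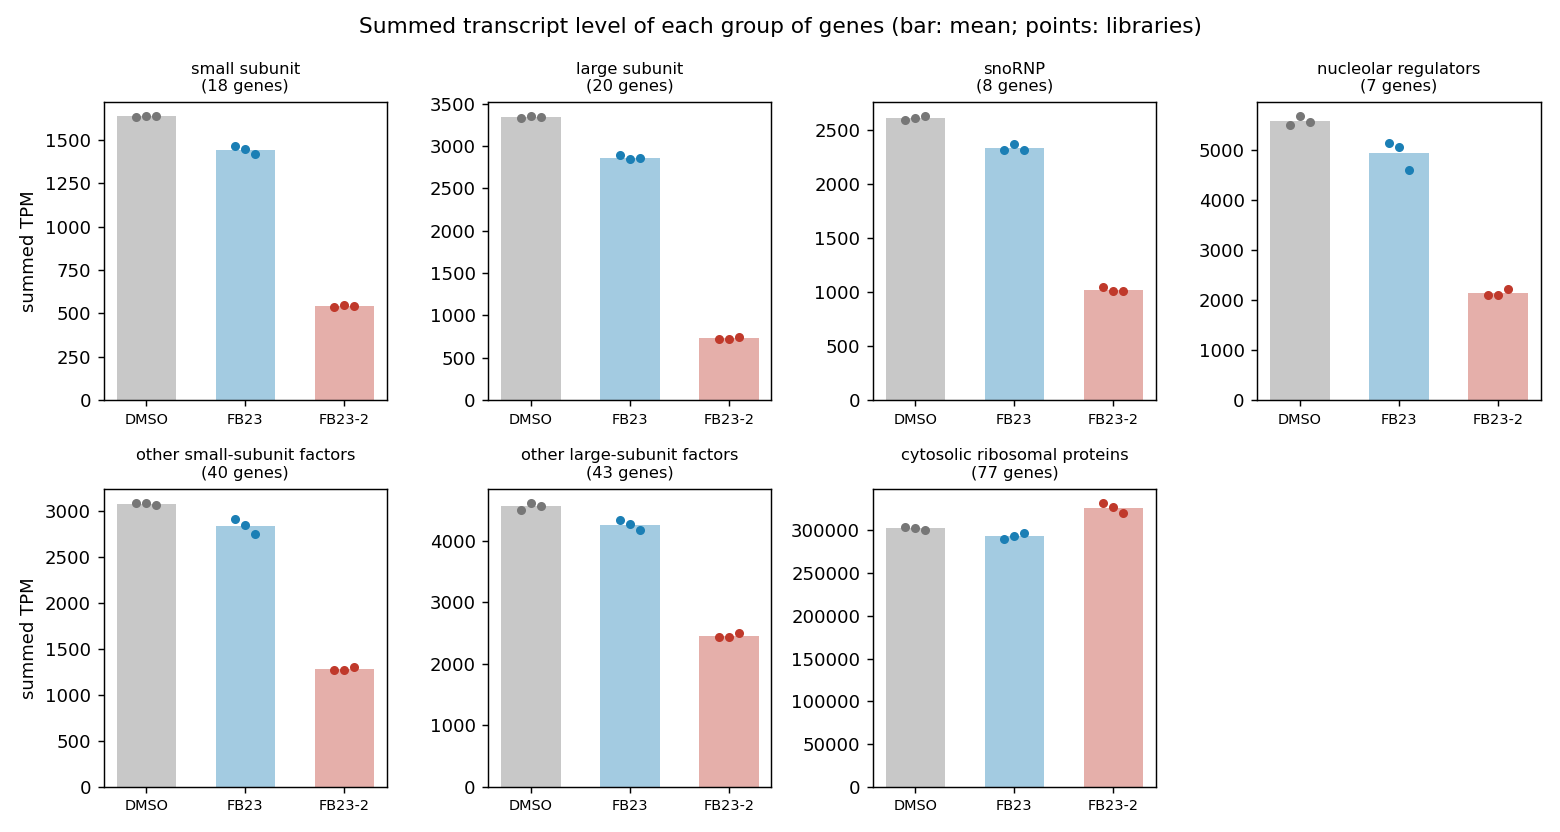
Summed TPM (vertical axes, linear from 0, bars are means of 3 libraries and points are libraries) of the 4 role groups of ribosome biogenesis genes, of the other small-subunit and large-subunit factors and of the cytosolic ribosomal proteins in DMSO, FB23 and FB23-2. The large-subunit factors stand at 21.8% of DMSO with FB23-2, while the ribosomal proteins stand at 108%. On log2(TPM + 1) the median change of all tested genes was 0.20 with FB23-2, and with TMM scaling that of the ribosomal proteins was -0.16.

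Other genes of the pathway were counted from lists of known factors, each counted whole. With FB23-2, 39 of 40 other small-subunit factors were lower and 1 higher, with a median of -1.54, where 41.3% of all tested genes were called lower. The lowest were NOL6, a processome protein, at -2.63 ± 0.05 and DHX37, the helicase that releases U3, at -2.54 ± 0.05. The exception was RIOK3, a kinase of the RIO family, which rose by 0.64 ± 0.05, from 69.4, 66.5 and 65.6 CPM in DMSO to 100.8, 105 and 109 CPM. Of 43 other large-subunit factors 41 were lower and 2 higher (median -1.59), with RRP15 and RPF2, early large subunit factors, at -2.93 ± 0.07 and -2.84 ± 0.07. The genes that rose were NOP53 (listed as GLTSCR2), a nucleolar factor that recruits the exosome, by 0.77 ± 0.05, from 380.0, 377 and 385 CPM to 669, 656 and 620.4 CPM, and EFL1, a GTPase of late large subunit maturation, by 0.35 ± 0.06. All 11 snoRNP assembly factors were lower (median -1.62), among them NUFIP1 at -2.28 ± 0.10 and RUVBL1, an ATPase, at -2.22 ± 0.06, with the smallest falls in ZNHIT3 (-0.61 ± 0.12) and RPAP3 (-0.33 ± 0.06). So were all 14 genes of the RNA exosome, which trims precursor RNA (median -1.13), among them EXOSC5 at -2.62 ± 0.09 and EXOSC7 at -2.53 ± 0.11, with EXOSC6 (-0.54 ± 0.10) and the nuclease DIS3 (-0.48 ± 0.05) lowered least. Of 13 ribosomal DNA transcription factors 10 were lower, 1 higher and 2 were not called (median -1.56). POLR1G (listed as CD3EAP) and POLR1B, both subunits of RNA polymerase I, stood at -3.24 ± 0.07 and -2.51 ± 0.05, and TAF1D rose by 0.22 ± 0.06. WDR46 and RRN3 were not analysed here.

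With FB23 the same lists moved less. Called lower were 13 of 40 other small-subunit factors (median -0.12), 25 of 43 other large-subunit factors (-0.17), 3 of 11 snoRNP assembly factors (-0.13), 3 of 14 exosome genes (-0.04) and 7 of 13 ribosomal DNA transcription factors (-0.24), where 11.2% of all tested genes were called lower. On log2(TPM + 1) the counts of small-subunit, large-subunit and exosome genes became 7, 9 and 0, where 6.09% of all tested genes were called lower. With DMSO replicate 1 left out the count of snoRNP assembly factors became 1, where 7.08% of all tested genes were called lower. POLR1G had the largest fall, by 0.55 ± 0.06, from 79.25, 72.8 and 75.75 CPM in DMSO to 52.85, 52.6 and 50.5 CPM. The lowest large-subunit factors were NLE1, which fell by 0.38 ± 0.05, and DDX51, a helicase of the large subunit pathway, by 0.36 ± 0.05. Among small-subunit factors DHX37 fell by 0.35 ± 0.04 and DIMT1, a methyltransferase, by 0.32 ± 0.05, and the smallest called falls were those of PDCD11 (-0.17 ± 0.04) and ABT1 (-0.16 ± 0.05). The assembly factors RUVBL1 and RUVBL2 fell by 0.24 ± 0.05 and 0.23 ± 0.06, and the 3 exosome genes were C1D (-0.26 ± 0.09), EXOSC5 (-0.22 ± 0.07) and MTREX, the helicase of the nuclear exosome, listed as SKIV2L2 (-0.13 ± 0.05). UBTF, which opens ribosomal DNA for transcription, fell by 0.31 ± 0.04, and the polymerase subunits POLR1B and POLR1E by 0.25 ± 0.04 and 0.23 ± 0.05. NOP53 rose by 0.15 ± 0.05 (edgeR adjusted p = 0.0366) and RPAP3, an assembly factor of snoRNPs, by 0.17 ± 0.06 (adjusted p = 0.0454), and in at least 1 other way of processing neither list held a gene called higher. MYC, the transcription factor tied to these genes, stood at 1038, 1027 and 1016 CPM in DMSO, 822, 824.5 and 851 CPM with FB23 and between 265 and 302 CPM with FB23-2. Its groups did not overlap, and its log2 fold changes were -0.30 ± 0.05 and -1.83 ± 0.05.

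The cytosolic ribosomal proteins, which stay in the ribosome, moved differently in size and not in 1 direction. In the FB23-2 libraries 41 of 77 were called lower and 10 higher, and 26 did not pass, with a median of -0.16. Among all tested genes 41.3% were called lower and 41.3% higher. The direction of the 77 depended on the processing, since on log2(TPM + 1) 16 were lower, where 31.75% of all tested genes were called lower. Over all ways of processing the number higher ranged from 8 to 43 and the median from -0.19 to 0.14. RPS26 stood apart from the other ribosomal proteins with a fall of 2.07 ± 0.08, from 421, 412 and 393.5 CPM in DMSO to 101, 95.2 and 95.9 CPM with FB23-2, and FAU came next at -0.81. RPS29 and RPL28 were highest at 0.96 and 0.89. RPS29 averaged only 13.85 TPM in DMSO, with 120 to 554 counts in a library. RPL28, RPS26 and FAU averaged 199.4, 1769 and 4396 TPM there. With FB23, RPS26 (-0.21 ± 0.07) and RPL23 (-0.16 ± 0.06) were called lower and 0 of 77 higher, where 11.2% of all tested genes were called lower. After removal of GC content and length trends 38 were lower with FB23, beside 15.9% of all tested genes. On log2(TPM + 1) 0 were lower with FB23, beside 6.09% of all tested genes. RPS9 and RPS18 were not analysed here.

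**Figure D5:**
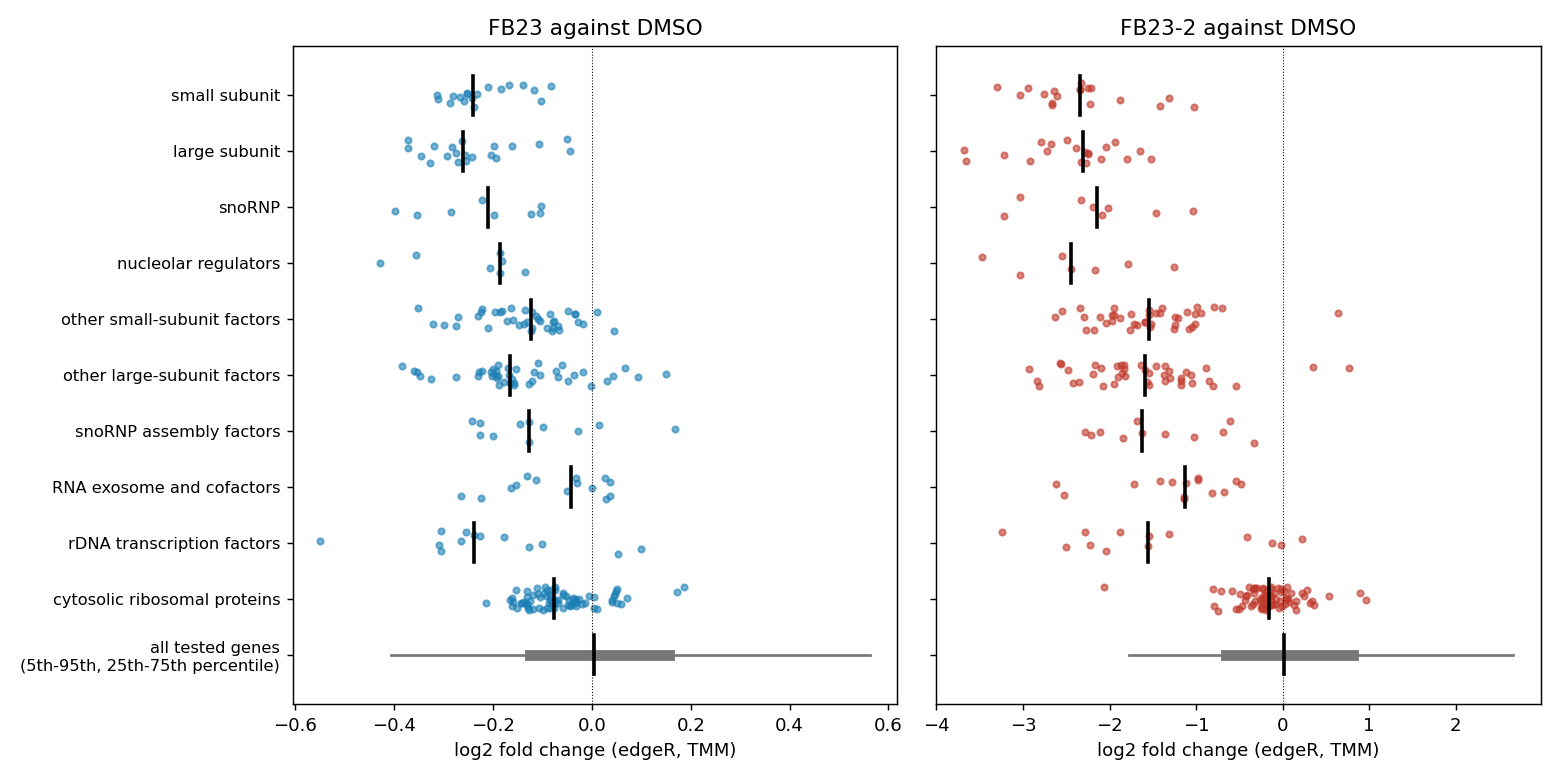
Log2 fold change against DMSO (horizontal axes, edgeR, different ranges) of every gene of the 4 role groups and of the 6 other lists, for FB23 (left) and FB23-2 (right), with black bars at list medians and the spread of all tested genes at the bottom. With FB23-2 the biogenesis lists have medians between -2.44 and -1.13 and the ribosomal proteins -0.16.

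Some of the 53 genes share sequence or position with others, which limits their counts. Exons of 29 of them overlap another annotated gene, and the strand setting of the counting is not given, although the library kit was directional. PPAN shares its exons with the read-through transcript PPAN-P2RY11, which received 987 counts over the 9 libraries against 21187 for PPAN. The read-through transcript held 69.7, 79.4 and 22.5 counts in DMSO replicates 1 to 3. With FB23 it held 76.2, 388.4 and 221.0 counts, beside 1579.1, 3918.1 and 5461.0 for PPAN. Its log2 fold change with FB23 was 1.32 ± 0.48 and did not pass (edgeR adjusted p = 0.058). In the FB23-2 libraries it held 99.3, 30.3 and 0 counts in replicates 1 to 3 beside 573.8 and 453.7 in replicates 1 and 2 for PPAN. The PPAN values with both compounds are therefore uncertain by such a split. NOP14, a small-subunit factor, fell by 1.88 ± 0.04 with FB23-2 while the opposite-strand gene NOP14-AS1 rose by 0.89 ± 0.10, from 7.41 to 13.75 CPM on average. PA2G4P4, a processed copy of the large-subunit factor PA2G4, had 62 counts over the 9 libraries against 128759 for PA2G4. Each of the 53 genes has 1 transcript in the deposited tables, so changes between isoforms cannot be read from them.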

How the data were processed

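The deposited tables give, for each of 9 libraries and 26830 genes, expected counts of reads estimated by RSEM, per the file headers, with TPM and FPKM as the authors' length-scaled values and the length of each gene in bases. RSEM 1.2.31 and the build GRCh38 are named in the submitters' processing notes. For aligner, annotation and strand setting: not given in the sources used here. TPM was used as deposited for levels and FPKM was not used.

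Expected counts were rounded and tested with edgeR 4.0.16 (R 4.3.3): 13365 genes passed filterByExpr (minimum count 10, minimum total 15), scaling was by TMM, and the model had 1 mean for each group over 9 libraries, with the two-sided quasi-likelihood F test and Benjamini-Hochberg adjustment over all tested genes at 0.05. Values marked ± after log2 fold changes are standard errors, and intervals are 95% intervals. Fold changes of called genes are relative to the TMM scaling. The fits were tested on simulated data. Gene positions are from GENCODE on GRCh38, and promoter windows from RefSeq on GRCh38.p14, with 8 of 53 genes unmatched.

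The genes, the lists, the roles and the rule for named genes were chosen with earlier results of these data known, so counts over them are descriptions. Values in every library are given in each role group for the 3 genes with the largest and the 2 with the smallest change with FB23-2, the 2 with the largest change with FB23, and always for NCL, NPM1, FBL, DKC1, NOP56, PES1, BOP1, HEATR1 and PPAN. In each other list the 2 highest and 2 lowest called genes of each compound are named (fewer where fewer rose or the same gene served as both), and MYC always. Alternatives were DESeq2 1.42.0 size factors and Wald test, upper-quartile factors, library totals, no filter, at least 1 CPM in 3 libraries, limma 3.58.1 (voom and log2(TPM + 1)), fits of 6 libraries, GC content and length trends removed (GC content known for 94.3% of genes), the replicate number as a block, and leaving out each library.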

Additional observations from a re-analysis of the deposited data

How the results depend on the processing

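All 53 genes stayed lower with FB23-2, against DMSO and against FB23, in all 21 other ways of processing run for each comparison. With FB23, 27 genes kept the same call in every one of them, 19 lost a call at least once, 7 gained one and 0 reversed. The number called with FB23 was 27 with limma on log2(TPM + 1), where 6.09% of all tested genes were called lower. It was 37 to 44 when 1 library was left out, where 7.08% to 11.75% of all tested genes were called lower. It was 0 if a log2 change of at least 1 in size was also required. The median log2 fold change with FB23 was -0.22 (-0.218) with library totals and -0.21 without a filter. With FB23-2 against DMSO it was -2.156 with upper-quartile factors, -2.18 with library totals, -2.354 without a filter, -2.299 with at least 1 CPM in 3 libraries, -2.039 on log2(TPM + 1), -2.379 with GC content and length trends removed, -2.38 with the replicate block added to that, and -2.35 to -2.283 when 1 library was left out. With FB23-2 against FB23 it was -2.092 with DESeq2 size factors and -2.092 with the DESeq2 Wald test, -1.954 with upper-quartile factors, -1.997 with library totals, -2.178 without a filter, -2.09 with at least 1 CPM in 3 libraries, -1.82 on log2(TPM + 1), and -2.132 to -2.055 when 1 library was left out. The median of all genes with FB23-2 against DMSO was itself shifted to 0.18 with upper-quartile factors, 0.16 with library totals and 0.20 on log2(TPM + 1). With GC content and length trends removed the FB23-2 change of NOP10 was -0.67. The share of promoters with the motif was 15.6% with only the bases before the start. Deviations from group means had correlations of -0.18 to 0.09 over genes between samples with the same replicate number. Each mean held 3 libraries and samples with different numbers were not compared, so this cannot show whether the numbers pair the libraries. With the replicate block 41 genes were called with FB23, 53 with FB23-2 and 53 between the compounds, where 8.74%, 40.7% and 40.4% of all tested genes were called lower. The smallest count of any of the 53 genes in a library was 75. The cause of these differences was not tested.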
